A study of Mus musculus with 12 samples.

Results

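Osteopontin (Spp1), its receptor CD44 (Cd44), the matrix protein fibronectin (Fn1), the adhesion receptor VCAM-1 (Vcam1) and the integrin subunits alpha V (Itgav), beta 3 (Itgb3) and alpha 4 (Itga4) were followed in myeloid cells of mice given a stone-forming compound. The set was chosen by gene name, and every array probe carrying 1 of these 7 names was read on its own. It held 7 of 34821 gene names and 14 of 55681 probes on the array. Spp1 and Fn1 had 1 probe each, Cd44 had 4, and the other genes had 2 each.

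The 12 samples fell into 4 groups of 3, each sample hybridised to 1 single-colour Agilent mouse array. WT kidney cells came from wild type mice of the B6C3Fe a/a-Csf1op/J strain. The op/op kidney cells came from mice of that strain homozygous for the Csf1op allele, which is known to leave mice without functional M-CSF, the macrophage growth factor. Both kidney groups received glyoxylate (GOX), an oxalate precursor used to form kidney crystals, at 80 mg/kg for 6 days, and CD11b+/CD11c+ cells were then sorted from the kidneys on an autoMACS, a magnetic separator. All kidney mice were treated, so no value below is a response to glyoxylate. The other groups were macrophages derived from bone marrow of the same strain, M1 after LPS and GM-CSF and M2 after IL-4 and M-CSF, and they were the study's polarization controls. The labels used here give neither the genotype of the marrow donors nor the animals' age, and they do not say whether the 3 arrays of a group came from separate animals or cultures. If they did not, the spread behind the p-values is a technical one.

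Osteopontin is a secreted, acidic phosphoprotein that binds calcium crystals and is a matrix protein of kidney stones. It also acts as a cytokine. Its RGD sequence binds integrins such as alpha V beta 3, and a cryptic motif beside it, uncovered when thrombin cuts the protein, binds alpha 4 beta 1 and alpha 9 beta 1. CD44 is the main hyaluronan receptor and also binds osteopontin. Fibronectin is a ligand of alpha V beta 3 and alpha 4 beta 1, and VCAM-1 is the endothelial and macrophage ligand of alpha 4 beta 1. In kidney, osteopontin is made by tubular cells as well as by macrophages.

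The probes are 60 bases long, and a signal reports only the transcripts that hold those bases. For 6 of the 14 probes, which lie in coding sequence, the probe itself is printed 5′ to 3′, because the probes of 1 gene did not always give the same result. A probe is named by the position of its first base in its transcript, as the array design lists it, and coordinates are those of mm9 in the files. In the osteopontin probe, capitals mark the codons of the cryptic integrin-binding motif, and in the third Cd44 probe they mark the stop codon. No letters are marked in the others. The first pair of Cd44 probes lies in the alternatively spliced variable region, so it reports long Cd44 forms, whereas the third reports the end of the coding sequence that long and standard forms share.
Spp1, position 628, chr5:104868502-104868561, plus strand: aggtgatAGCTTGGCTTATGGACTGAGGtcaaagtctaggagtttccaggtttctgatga
Cd44, position 1777, chr2:102677971-102678030, minus strand: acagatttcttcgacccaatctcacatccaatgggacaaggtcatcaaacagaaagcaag
Cd44, position 1965, chr2:102672645-102672704, minus strand: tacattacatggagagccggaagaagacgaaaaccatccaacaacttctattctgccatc
Cd44, position 2614, chr2:102654278-102654337, minus strand: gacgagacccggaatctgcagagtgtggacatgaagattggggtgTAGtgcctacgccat
Vcam1, position 842, chr3:115828953-115829012, minus strand: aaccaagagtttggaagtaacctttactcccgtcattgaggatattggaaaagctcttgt
Itga4, position 2292, chr2:79153985-79155115, plus strand: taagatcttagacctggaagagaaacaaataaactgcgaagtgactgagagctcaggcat

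The Itga4 probe covers 1131 bases of genome, so it spans an intron. The other Cd44 probe starts at position 5494 (chr2:102651398-102651457), 2880 bases after the stop codon probe both in the transcript and in the genome. It therefore lies in the same exon, in the 3′ UTR, and 29 of its 60 bases are T. The remaining probes were Fn1 at 8233 (chr1:71632116-71632175), Vcam1 at 3060 (chr3:115813216-115813275), Itgav at 3885 (chr2:83643905-83643964) and 6113 (chr2:83646133-83646192), Itgb3 at 2618 (chr11:104528625-104528684) and 5665 (chr11:104531672-104531731), and Itga4 at 9754 (chr2:79173193-79173252). The pairs of Itgav and Itgb3 probes are as far apart in the genome as in the transcript (2228 and 3047 bases), so no intron lies between the probes of a pair. Exon and UTR annotation of mm9 was not used here.

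All values are log2 of the spot signal minus the array's 75th percentile, so that 0 is the signal of the 75th percentile probe. A value belongs to its own probe, and levels were not compared between genes. The brightest probe of a gene is named only to pick 1 probe for it. Differences are between group means with the standard error (SE) of a limma fit over all 12 arrays, and a difference was called when its p, adjusted by the Benjamini-Hochberg method over all probes tested, was under 0.05. Probes of the set were neither saturated nor marked as outliers on any array. By the call of the scanner software, 76.1 to 79.3% of probes were well above background on WT arrays, 63.1 to 68.8% on op/op arrays, 72.6 to 75.1% on M1 arrays and 64.4 to 65.1% on M2 arrays. WT replicate 1 was alone on slide 1, the other 5 kidney arrays shared slide 2 and the 6 marrow arrays slide 3. Within a slide, the upper row held WT or M1 arrays and the lower row the others, so row and group cannot be told apart.

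**Figure D1:**
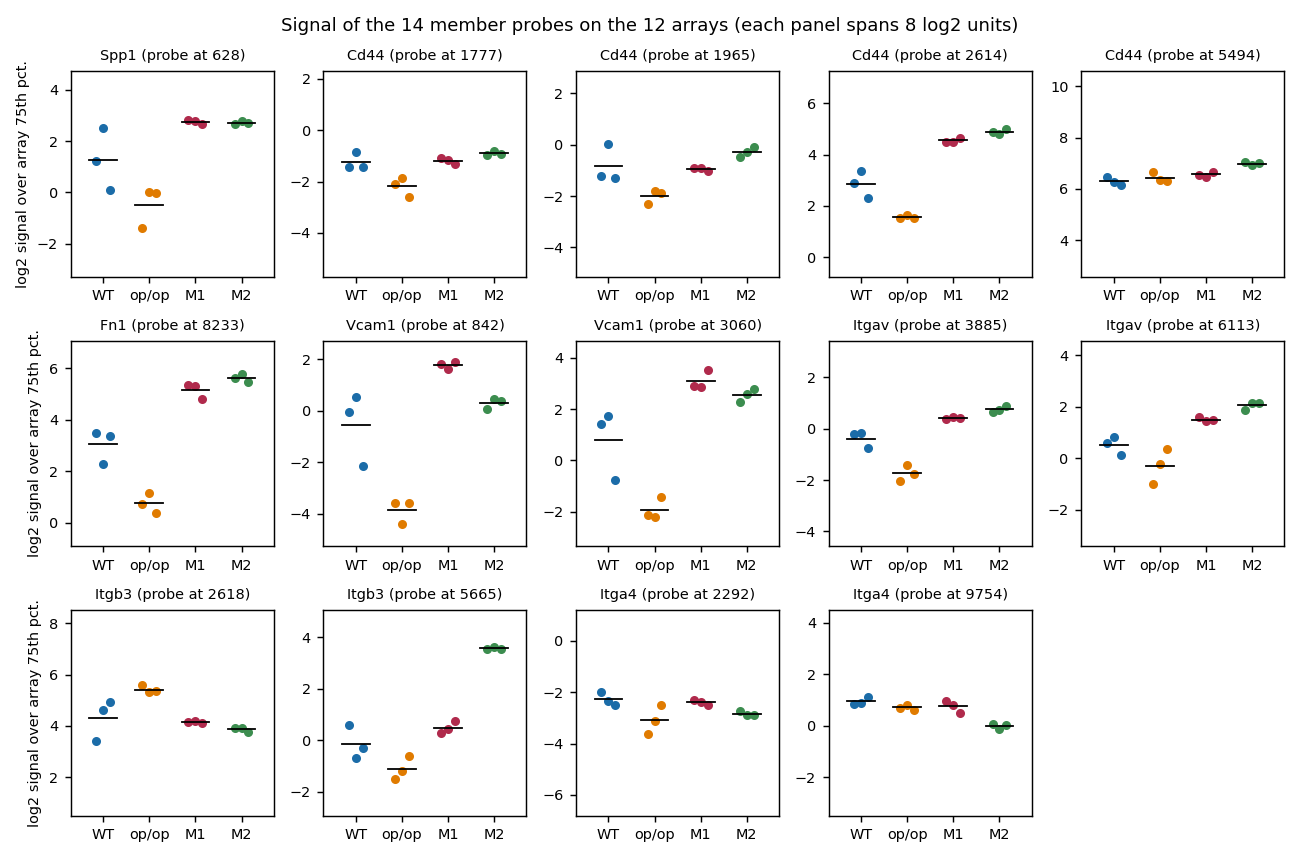
Scaled log2 signal (vertical axis, 0 at the 75th percentile of an array) of the 14 probes, titled by gene and position in the transcript, on each array of the 4 groups (horizontal axis). Points are arrays, bars are group means of 3 arrays, and every panel spans the same range. The Fn1 and Vcam1 probes were lowest on the op/op arrays, the Itgb3 probe at 2618 was highest there, and the Cd44 probe at 5494 stayed between 6.15 and 7.03 on all 12 arrays.

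In kidney cells, signals of fibronectin, VCAM-1, osteopontin, alpha V and 3 of the 4 Cd44 probes were lower in op/op cells. Of the 14 probes, 11 were called lower and 1 higher, and the 12 called lie beside 56% of all 40648 probes tested in this comparison (28.5% lower, 27.5% higher). The median difference over the 14 was -1.07, against 0.08 over all probes tested. The 3 WT and the 3 op/op values did not overlap for 10 of the 14 probes, against 56.4% of all probes tested. Kidney arrays varied more than marrow arrays (median residual SD 0.376 against 0.172), so that a fit with 1 spread for all groups makes kidney p-values too small. With only the 6 kidney arrays in the fit, 7 of the 14 were called, all lower, against 29.7% of all probes. These 7 were the Fn1 probe, both Vcam1 probes, the Cd44 probes at 1777, 1965 and 2614, and the Itgav probe at 3885. Within slide 2, which leaves out WT replicate 1, 9 were called, against 48% of all probes.

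**Figure D2:**
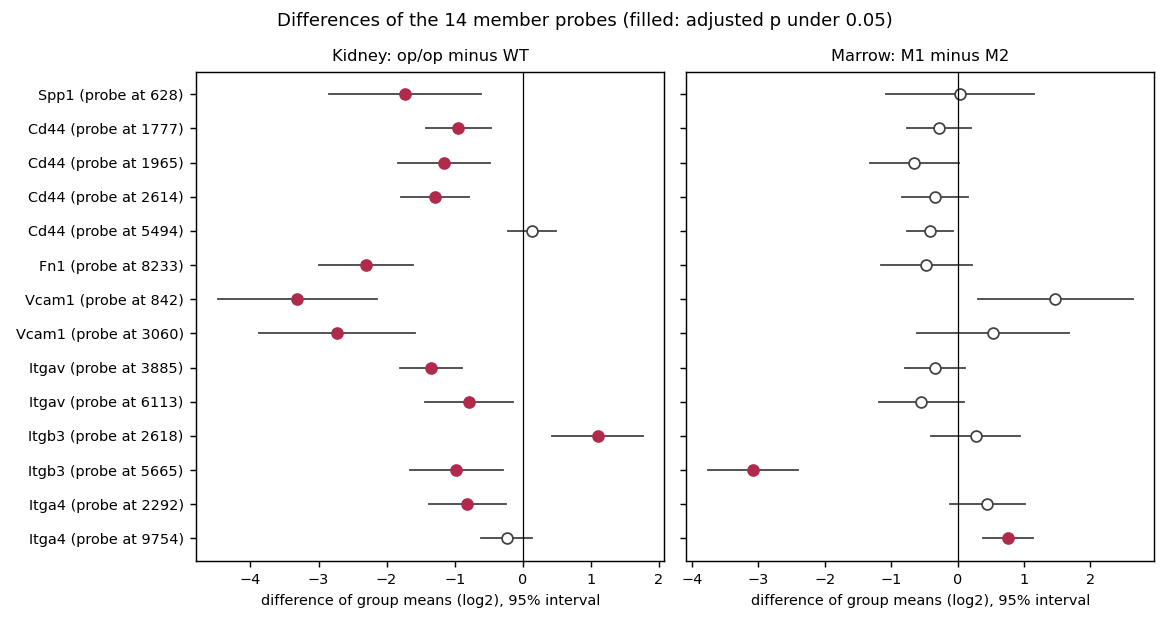
Difference of group means on the log2 scale (horizontal axis) for each of the 14 probes (vertical axis), for op/op minus WT on the left and M1 minus M2 on the right. Lines are 95% intervals of the 12-array fit, and filled points had an adjusted p under 0.05. On the left 11 filled points lie below 0 and 1 above it, and on the right the Itgb3 probe at 5665 stands at -3.08.

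Osteopontin itself varied widely among WT arrays. Its signal was 1.21, 2.50 and 0.08 on WT replicates 1, 2 and 4, and -1.38, -0.00 and -0.04 on op/op replicates 1, 2 and 4. The lowest WT array was 0.08 and the highest op/op array -0.00, so the groups were separated by less than the gap between any pair of WT arrays. On average it was lower in op/op by 3.33-fold (difference -1.73 ± 0.51 SE, n = 3 and 3, limma adjusted p = 0.0148). That call ended with only the kidney arrays in the fit (limma adjusted p = 0.0547). It also ended when WT replicate 2 was left out (-1.12) or op/op replicate 1 was (-1.28). Over the 17 alternatives the limma adjusted p ran from 0.00176 to 0.0672.

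Marrow macrophages carried more Spp1 signal and varied less. It was 2.83, 2.77 and 2.66 on the M1 arrays and 2.67, 2.77 and 2.72 on the M2 arrays. M1 and M2 overlapped, and their difference was 0.03 ± 0.51 SE, with a 95% interval from -1.08 to 1.15. That SE and interval use the spread of all 12 arrays, so they are wide for the marrow arrays. The Spp1 SD was 0.09 in M1 and 0.05 in M2, against 1.21 in WT and 0.79 in op/op. All 6 marrow arrays were above all 6 kidney arrays. WT was below M1 by -1.50 ± 0.51 SE (limma adjusted p = 0.0257) and below M2 by -1.46 ± 0.51 SE (limma adjusted p = 0.0262). These calls ended under 8 and 9 of 17 alternatives, with slide as a random block among them (limma adjusted p = 0.134 and 0.132, the largest). They also ended without WT replicate 1, without WT replicate 4 (-0.90 and -0.87) and without any 1 of the marrow arrays compared. The op/op cells were below M1 by -3.23 ± 0.51 SE and below M2 by -3.20 ± 0.51 SE, 9.38-fold and 9.16-fold. By group means the order was M1 and M2, not told apart, then WT, then op/op, and both steps below M2 rested on calls that single arrays ended.

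Tubular epithelium also makes osteopontin, and proximal tubule markers were lower in op/op as well. The summed signal of 10 such markers was 119 to 246 times the array's 75th percentile in WT, 24.5 to 71.1 in op/op, 1.63 to 1.75 in M1 and 2.71 to 3.03 in M2. Of the 10, 9 were called lower in op/op, beside 28.5% of all probes. On replicates 1, 2 and 4 the sums were 246, 119 and 126 in WT and 44.7, 71.1 and 24.5 in op/op. The sums were highest on WT replicate 1 and op/op replicate 2, and Spp1 on WT replicate 2 and op/op replicate 2. With 3 arrays a group these orders were too few to compare. All 10 were well above background on every WT array, 8 on every op/op array, and Slc13a1 on none of the op/op arrays. In marrow cells 7 of the 10 were well above background on every M1 array and 6 on every M2 array, and Cubn and Slc13a1 on none. Of 8 distal nephron and collecting duct markers 4 were called higher and 1 lower in op/op, beside 27.5% and 28.5% of all probes. Their sums were 44.2 to 105 in WT and 23 to 72.6 in op/op. The part of tubular RNA in the kidney difference was not tested.

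Macrophage markers moved in the same direction. Of 12, 9 were called lower in op/op, beside 28.5% of all probes, with a median difference of -1.55. Among the 9 were Cx3cr1, Adgre1, which encodes F4/80, and Itgax, which encodes CD11c. Itgam, which encodes CD11b, differed by 0.31 ± 0.21 SE and Csf1r, the M-CSF receptor, by 0.08 ± 0.15 SE, neither called. All 12 were well above background on every kidney array, and their sums overlapped (286 to 432 in WT, 286 to 362 in op/op). In bulk samples such as these, fewer cells of a type and less RNA per cell cannot be told apart. T cell markers were called higher for 3 of 4 tested, beside 27.5% of all probes, with sums of 6.81 to 14.7 in WT and 22.2 to 28.7 in op/op. B cell markers were higher for 4 of 5 and lower for 1, beside 27.5% and 28.5%, with sums of 1.86 to 2.35 and 3.46 to 5.10. The part of these marker changes in the differences of the 7 genes was not tested.

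**Figure D3:**
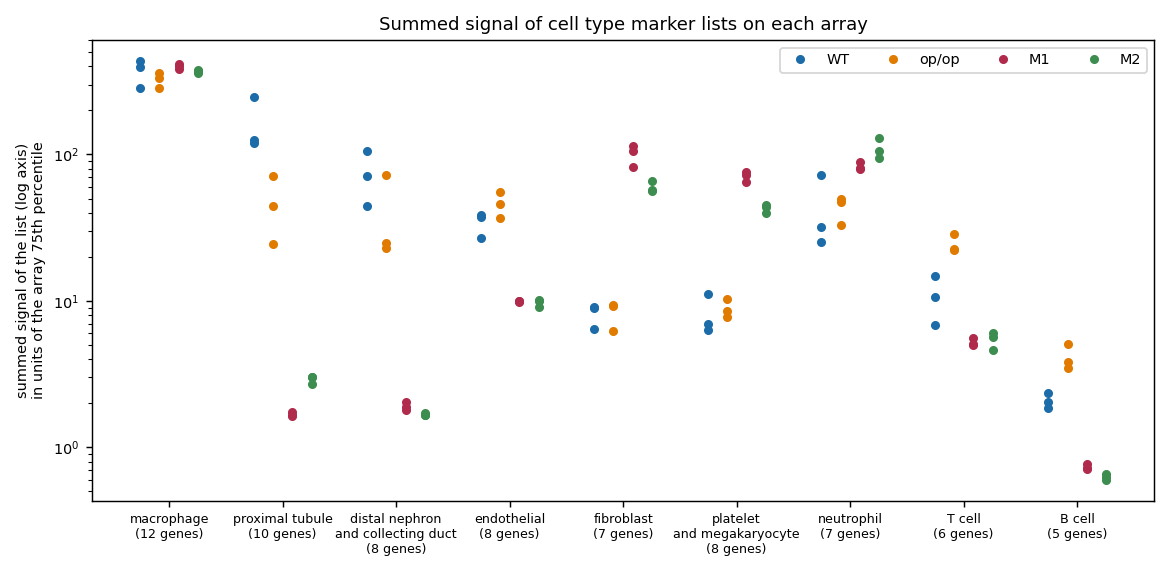
Summed signal of each cell type marker list (vertical axis, log scale, in units of the array's 75th percentile) on the 12 arrays, coloured by group; the number of genes in each list is given on the horizontal axis. The proximal tubule sums were 119 to 246 in WT and 24.5 to 71.1 in op/op, and the macrophage sums of these groups overlapped. A sum follows its brightest genes. Gene by gene, 9 of 10 proximal tubule and 9 of 12 macrophage markers were called lower in op/op, beside 28.5% of all probes.

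Cd44 split by probe. The probe over the stop codon read 2.89, 3.35 and 2.30 on WT replicates 1, 2 and 4 and 1.51, 1.63 and 1.51 on the op/op arrays. Every op/op array was below every WT array, by 2.45-fold on average (difference -1.29 ± 0.23 SE, limma adjusted p = 0.00164). The variable region probe at 1777 was at -1.42, -0.84 and -1.44 in WT and at -2.09, -1.87 and -2.58 in op/op, 1.93-fold lower (difference -0.95 ± 0.22 SE, limma adjusted p = 0.00532). The variable region probe at 1965 was at -1.22, 0.03 and -1.31 in WT and at -2.30, -1.79 and -1.88 in op/op, 2.23-fold lower (difference -1.16 ± 0.31 SE, limma adjusted p = 0.00985). For these 3 probes the groups did not overlap, and the calls held under all 17 alternatives run, with limma adjusted p up to 0.0496. After normexp the differences at 1777 and 1965 were -0.44 and -0.69, and without WT replicate 2 that at 1965 was -0.72.

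The Cd44 probe in the 3′ UTR, the brightest of the 4, did not follow them. It read 6.46, 6.27 and 6.15 in WT and 6.65, 6.34 and 6.29 in op/op, overlapping. Its difference was 0.13 ± 0.16 SE (limma adjusted p = 0.484, 95% interval -0.22 to 0.48), and quantile normalization turned its sign (-0.14). A change as large as that of the stop codon probe lies outside the interval. Per array, its signal over that of the stop codon probe was 3.45 ± 0.48 in WT and 4.87 ± 0.23 in op/op (log2 ratio, SD, n = 3 each), a difference of 1.43 with no overlap. Against the probes at 1777 and 1965 the ratio differed by 1.08 and 1.29, again with no overlap (0.51 and 0.76 after normexp, and 0.85 for the latter without WT replicate 2). In an exact two-sided permutation test each gave p = 0.1, the smallest that 3 against 3 arrays allow. In M1 and M2 the ratio to the stop codon probe was 2.02 ± 0.04 and 2.10 ± 0.07 (SD, n = 3 each).

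In marrow cells all 4 Cd44 probes were lower on M1 than on M2 arrays, without overlap, and none was called in the 12-array fit. The stop codon probe read 4.50, 4.50 and 4.65 in M1 and 4.86, 4.82 and 4.99 in M2, a difference of -0.34 ± 0.23 SE. The 3′ UTR probe read 6.56, 6.48 and 6.66 in M1 and 7.03, 6.92 and 7.01 in M2, a difference of -0.42 ± 0.16 SE (limma adjusted p = 0.0991). With only the 6 marrow arrays in the fit, which use the smaller spread of these arrays, the probes at 1965, 2614 and 5494 were called lower in M1 (limma adjusted p = 0.00885, 0.0358 and 0.0146). The largest limma adjusted p over the 17 alternatives of these probes were 0.407, 0.603 and 0.273. WT kidney cells were below M1 at the stop codon probe by -1.70 ± 0.23 SE and not called different at the other 3, so their order against marrow also depended on the probe.

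Fibronectin, a matrix ligand of alpha V beta 3 and alpha 4 beta 1, was lower in op/op cells. Its signal was 3.50, 2.28 and 3.39 on WT replicates 1, 2 and 4 and 0.74, 1.15 and 0.39 on op/op replicates 1, 2 and 4. The lowest WT array was above the highest op/op array, and the mean was 4.92-fold lower in op/op (difference -2.30 ± 0.32 SE, limma adjusted p = 0.000688). The call held under all 17 alternatives (differences -2.69 to -2.07). Marrow cells had 5.34, 5.32 and 4.81 in M1 and 5.64, 5.77 and 5.47 in M2, close to each other without overlap (difference -0.47 ± 0.32 SE, limma adjusted p = 0.379). Both marrow groups were above all kidney arrays, WT being 4.29-fold below M1 and 5.94-fold below M2, and in the order M2, M1, WT, op/op each step but the first was called.

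Fibroblasts also make fibronectin, and their markers were read beside it. The sum of 7 fibroblast markers was 6.47 to 9.07 in WT, 6.23 to 9.40 in op/op, 81.5 to 115 in M1 and 55.9 to 66.1 in M2. In kidney the sums overlapped, and Lum was well above background on no array. Of 6 tested, 2 were called lower in op/op (Col1a1 and Col3a1), beside 28.5% of all probes. Col1a1, which encodes a chain of type I collagen, was below M1 by -5.70 in WT. The part of stromal RNA in the higher marrow Fn1 signal was not tested.

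VCAM-1 was lower in op/op cells at both probes. The probe at 3060, the brighter, read 1.42, 1.73 and -0.76 on WT replicates 1, 2 and 4 and -2.14, -2.20 and -1.44 on op/op replicates 1, 2 and 4. WT replicate 4 lay well below the other WT arrays but above all op/op arrays. The difference was -2.72 ± 0.52 SE, 6.61-fold lower (limma adjusted p = 0.00236). The probe at 842 read -0.05, 0.55 and -2.17 in WT and -3.61, -4.42 and -3.57 in op/op, where none of the arrays had it well above background. Setting those arrays to the dimmest signal well above background, or to their own value where higher, gave a 7.33-fold lower mean. That value is not a lower limit. The fit on the measured values had a limma adjusted p of 0.00122. The size depended on how dim signals were treated: the difference was -1.56 after normexp and -2.04 with dim signals raised to a higher floor, both called. Without WT replicate 4 the difference at 3060 was -3.50.

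The 2 Vcam1 probes gave the same order in marrow with unequal gaps. At 842 the M1 arrays read 1.84, 1.61 and 1.88 and the M2 arrays 0.08, 0.44 and 0.39, 2.78-fold apart without overlap (difference 1.47 ± 0.53 SE, limma adjusted p = 0.0831). With only the 6 marrow arrays in the fit this was called (limma adjusted p = 0.00059), and over the 16 alternatives the limma adjusted p reached 0.206. At 3060 the M1 arrays read 2.88, 2.84 and 3.53 and the M2 arrays 2.27, 2.60 and 2.76, a difference of 0.54 ± 0.52 SE (limma adjusted p = 0.58). WT cells were below M1 by -2.29 ± 0.52 SE and op/op cells by -5.01 ± 0.52 SE at 3060, the latter 32.3-fold. Without WT replicate 4 the WT difference was -1.51. VCAM-1 is also an endothelial protein, and 8 endothelial markers summed to 26.9 to 38.7 in WT, 36.8 to 55.7 in op/op and 9.08 to 10.2 over the 6 marrow arrays. In op/op 1 of the 8 markers was called higher and none lower, beside 27.5% and 28.5% of all probes. Their part in the Vcam1 differences was not tested.

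Of the integrin subunits, alpha V was lower in op/op. Itgav, which pairs with beta 1, beta 3, beta 5, beta 6 or beta 8 to bind RGD ligands, read -0.22, -0.19 and -0.76 in WT and -2.04, -1.41 and -1.75 in op/op at position 3885. These groups did not overlap, and op/op was 2.54-fold lower (difference -1.35 ± 0.21 SE, limma adjusted p = 0.00104, and -0.80 after normexp). At 6113, in the same exon, the arrays read 0.58, 0.81 and 0.14 in WT and -0.99, -0.23 and 0.36 in op/op. Op/op replicate 4 was above WT replicate 4 there, the difference was -0.79 ± 0.29 SE (limma adjusted p = 0.0383), and the call ended under 8 of 17 alternatives, with limma adjusted p up to 0.152. Without op/op replicate 1 it was -0.44, and within slide 2 -0.76.

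In marrow Itgav was slightly lower in M1. The probe at 6113 read 1.59, 1.45 and 1.47 in M1 and 1.88, 2.14 and 2.13 in M2 (difference -0.55 ± 0.29 SE, limma adjusted p = 0.256). The probe at 3885 read 0.36, 0.46 and 0.42 in M1 and 0.64, 0.73 and 0.90 in M2 (difference -0.34 ± 0.21 SE, limma adjusted p = 0.32). Neither pair overlapped, and with only the marrow arrays in the fit both were called (limma adjusted p = 0.0109 and 0.0411), against largest limma adjusted p of 0.443 and 0.588 over the alternatives. WT cells were called below M1 and M2 at both probes (differences -0.80 to -1.55). With slide as a random block the calls against M1 ended (limma adjusted p = 0.0549 at 3885 and 0.0885 at 6113), and at 6113 also without WT replicate 4.

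Itgb3, the beta subunit of alpha V beta 3 and of the platelet receptor alpha IIb beta 3, gave opposite results at its 2 probes. At 2618 the WT arrays read 3.42, 4.60 and 4.93 and the op/op arrays 5.58, 5.31 and 5.36, higher in op/op without overlap. The difference was 1.10 ± 0.31 SE, 2.14-fold (limma adjusted p = 0.0116, and 0.0563 with only the kidney arrays, the largest of the 17 alternatives). Without WT replicate 1, the lowest, it was 0.65. At 5665 the WT arrays read 0.59, -0.69 and -0.29 and the op/op arrays -1.51, -1.21 and -0.61. Op/op replicate 4 was above WT replicate 2, and the difference was -0.98 ± 0.31 SE, 1.97-fold lower (limma adjusted p = 0.0209), a call lost under 5 of 17 alternatives, within slide 2 among them (-0.62). Per array, the signal at 2618 over that at 5665 was 4.45 ± 1.40 in WT and 6.53 ± 0.56 in op/op (log2 ratio, SD, n = 3 each), 2.08 apart without overlap. Without WT replicate 1 this gap was 1.27.

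The 2 Itgb3 probes parted further in marrow. At 5665 the M1 arrays read 0.28, 0.44 and 0.76 and the M2 arrays 3.53, 3.63 and 3.57. M1 was 8.47-fold lower (difference -3.08 ± 0.31 SE, limma adjusted p = 3.07e-05), and the 17 alternatives gave -3.22 to -2.94, all called. At 2618 the M1 arrays read 4.17, 4.19 and 4.10 and the M2 arrays 3.93, 3.93 and 3.78, a difference of 0.27 ± 0.31 SE (limma adjusted p = 0.638, 95% interval -0.39 to 0.94). The ratio of the 2 probes was 3.66 ± 0.28 in M1 and 0.31 ± 0.09 in M2 (log2, SD, n = 3 each). The M2 cells thus stood above all other groups at 5665, op/op being lower by -4.69 ± 0.31 SE and WT by -3.71 ± 0.31 SE, and at 2618 the op/op cells did, above M2 by 1.54 ± 0.31 SE.

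Platelets carry beta 3, and 8 platelet and megakaryocyte markers were read beside it. Their sums were 6.30 to 11.2 in WT, 7.80 to 10.3 in op/op, 64.8 to 75.3 in M1 and 39.7 to 45.0 in M2. Pf4, platelet factor 4, was near background on all 3 op/op arrays. It was 20.5-fold lower there than in WT with these arrays set as for the dim Vcam1 probe. Ppbp and Gp1ba were well above background on no kidney array. Of the 4 markers tested in kidney, Gp1bb and Treml1 were called higher in op/op and Pf4 lower, beside 27.5% and 28.5% of all probes. Their median difference was 0.78. Itga2b, the alpha IIb partner of beta 3, was higher in op/op by 0.94 ± 0.25 SE (limma adjusted p = 0.00922). The part of platelet RNA in the Itgb3 signals was not tested.

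Itga4, which with beta 1 binds VCAM-1, fibronectin and the thrombin-cut form of osteopontin, differed little between kidney groups at its brighter probe. This probe at 9754 read 0.84, 0.87 and 1.14 in WT and 0.71, 0.83 and 0.60 in op/op. The op/op arrays lay just below the WT arrays, and the difference of -0.24 ± 0.17 SE was not called (limma adjusted p = 0.246, 95% interval -0.61 to 0.14). The coding probe at 2292 was dim, at -1.97, -2.33 and -2.50 in WT and -3.65, -3.11 and -2.49 in op/op, where 2 of 3 arrays were well above background. Its difference of -0.82 ± 0.26 SE was called (limma adjusted p = 0.0198), with overlapping groups, and 6 of 16 alternatives ended the call. It was -0.17 after normexp background correction, -0.53 without op/op replicate 1 and -0.67 within slide 2.

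Between marrow groups Itga4 was higher in M1. At 9754 the M1 arrays read 0.96, 0.79 and 0.51 and the M2 arrays 0.08, -0.15 and 0.04, higher in M1 by 0.76 ± 0.17 SE, 1.70-fold (limma adjusted p = 0.00894). WT and op/op were also above M2 at this probe, by 0.96 ± 0.17 SE and 0.72 ± 0.17 SE, and neither was told apart from M1. At 2292 the M1 arrays read -2.31, -2.37 and -2.50 and the M2 arrays -2.73, -2.89 and -2.90 (difference 0.45 ± 0.26 SE, limma adjusted p = 0.289). These groups did not overlap, and with only the marrow arrays in the fit the probe was called higher in M1 (limma adjusted p = 0.0151). Over the 16 alternatives the limma adjusted p reached 0.486.

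In M1 against M2 the 12-array fit called 14.3% of these probes, near the share of all probes. Of the 14 probes 1 was called higher (Itga4 at 9754) and 1 lower (Itgb3 at 5665), beside 17.8% of all 39286 probes tested (8.9% higher, 8.88% lower), with a median difference of -0.31 against -0.00 over all probes. The groups did not overlap for 13 of the 14 probes, the exception being Spp1, against 51.2% of all probes. With only the 6 marrow arrays in the fit 9 were called, 3 higher and 6 lower, against 35.3% of all probes (16.6% higher, 18.6% lower), and with normexp background correction 4, against 21.3%.

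Set beside marrow, kidney cells were mostly lower. WT was lower than M1 at 7 probes and higher at none, against 57% of all probes called (24.2% lower, 32.8% higher). WT was lower than M2 at 8 and higher at 1, against 62.1% (26.5% lower, 35.6% higher). The op/op cells were lower than M1 at 11 and higher at 1, against 78.9% (35.4% lower, 43.5% higher), and lower than M2 at 11 and higher at 2, against 81.4% (36.7% lower, 44.7% higher). Median differences of the 14 were -0.71, -1.0, -1.70 and -2.42 in that order, against 0.20, 0.20, 0.26 and 0.25 over all probes. These comparisons share arrays with each other and with the op/op and WT comparison. Kidney and marrow arrays lay on different slides, so tissue, cell preparation and slide cannot be told apart. With slide as a random block WT was called lower than M1 at 4 probes, against 38.9% of all probes called.

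Among other genes of these pathways, 7 of 13 integrin signalling genes tested were called lower in op/op and 1 higher, beside the 28.5% and 27.5% of all probes given above, with a median difference of -0.60. The lower count was 4 with only the kidney arrays in the fit, without WT replicate 2 or without op/op replicate 1, and the higher call ended under 9 of 17 alternatives. Apbb1ip, which encodes RIAM, a Rap1 effector that recruits talin, fell by 1.79 ± 0.24 SE (limma adjusted p = 0.00065), and by 1.15 after normexp background correction. Parvg, an adaptor of the integrin-linked kinase complex, fell by 1.36 ± 0.23 SE, and Rap1b, a small GTPase of integrin activation, fell by 1.13 ± 0.20 SE. In M1 against M2 3 of 13 were called higher and 1 lower, beside 8.9% and 8.88% of all probes. Src, a kinase downstream of integrins, was higher in M1 by 1.57 ± 0.22 SE, Ptk2b, the kinase PYK2, by 0.75 ± 0.20 SE and Rap1b by 0.71 ± 0.20 SE. The Ptk2b call ended under 5 of the 6 fits that leave out a marrow array (all but the one without M1 replicate 3) and the Rap1b call under all 6, so the higher count fell to 1 or 2. The lower count ran from 0 to 1 over these 6 fits and was 3 with only the marrow arrays.

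Other subunits of these receptors were called lower in op/op for 3 of 9 tested and higher for 1, a lower share near that of all probes (28.5%), with a median of -0.72. Without WT replicate 4 or op/op replicate 4, 5 were called lower, and without op/op replicate 1, 2 were called higher. Itga5, the alpha subunit of the fibronectin receptor, fell by 1.16 ± 0.20 SE (limma adjusted p = 0.00158), and by 0.47 after normexp. Itgb5, an alpha V partner, fell by 0.88 ± 0.19 SE, and Itga2b was the one that was higher. Itgb8, another alpha V partner, was well above background on no op/op array. It was 1.23-fold lower with these arrays set as for the dim Vcam1 probe. Its sign turned when dim signals were raised to a floor (0.56). In marrow 2 of 6 were called higher in M1 and none lower, beside 8.9% and 8.88% of all probes. Itga5 was 4.12-fold higher in M1 (difference 2.04 ± 0.20 SE) and Itga9, the partner of beta 1 that binds the cryptic osteopontin motif, 2.64-fold (1.40 ± 0.29 SE).

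Among other ligands, 3 of 9 tested were called lower in op/op and 1 higher, the lower share again near the 28.5% of all probes, with a median of 0.13. Thbs1, thrombospondin 1, fell by 2.96 ± 0.35 SE, 7.79-fold (limma adjusted p = 0.000437). Ccn1, a matricellular alpha V ligand, fell by 1.40 ± 0.33 SE. Madcam1, an alpha 4 beta 7 ligand, was higher by 0.57 ± 0.18 SE, the one higher call. That call ended with only the kidney arrays, without WT replicate 1 (the same fit as slide as a term) or 2, and without op/op replicate 1 or 4. Icam1, a ligand of beta 2 integrins, was called lower by 1.45 ± 0.47 SE on the log2 scale, but not with only the kidney arrays (limma adjusted p = 0.0638), after normexp (-0.53), without WT replicate 2 (-0.90) or without op/op replicate 1 or 2. In M1, 5 of 11 were called higher and none lower than in M2, beside 8.9% of all probes called higher, with a median of 1.06. Without M1 replicate 3 or M2 replicate 2 the count was 2, and without any other single marrow array it was 3. Icam1 was 12.1-fold higher (3.60 ± 0.47 SE), Thbs1 3.0-fold (1.59 ± 0.35 SE) and Ccn2, a further matricellular protein, 2.57-fold (1.36 ± 0.34 SE). The Ccn2 call ended without M1 replicate 3 or M2 replicate 2.

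Genes around hyaluronan and CD44 were called lower in op/op for 4 of 12 tested and higher for 2, beside 28.5% and 27.5% of all probes, with a median of 0.04. The counts were 2 and 0 with only the kidney arrays in the fit and 2 and 1 without WT replicate 2; without op/op replicate 1 or 4 the higher count was also 1. Srgn, serglycin, a proteoglycan that binds CD44, fell by 0.98 ± 0.19 SE, and Msn, moesin, which links CD44 to actin, fell by 0.80 ± 0.17 SE. Tnfaip6, which encodes TSG-6, a hyaluronan-binding protein, was higher by 1.23 ± 0.34 SE (limma adjusted p = 0.0109, and 0.0506 with only the kidney arrays), and by 0.75 within slide 2. In marrow 3 of 13 were called higher in M1 and 2 lower, beside 8.9% and 8.88% of all probes. Has2, a hyaluronan synthase, was well above background on no M2 array. It was 7.01-fold higher in M1 with the M2 arrays set as for the dim Vcam1 probe. The difference was smaller after normexp (1.83) and with dim signals raised to a floor (1.90). Cemip, a hyaluronan-degrading protein, and Hyal1, a hyaluronidase, were lower in M1 by 4.20-fold and 3.78-fold.

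Of the enzymes that process osteopontin, 1 of 7 tested was called in op/op, and it was lower, beside 28.5% of all probes. It was Acp5, the tartrate-resistant phosphatase that dephosphorylates osteopontin, which fell by 2.48 ± 0.46 SE, 5.57-fold (limma adjusted p = 0.00211). Without WT replicate 4 the lower count was 4, without WT replicate 1 it was 2, and after normexp 2 were lower and 1 higher. Between marrow groups 2 of 6 were called higher in M1 and 2 lower, beside 8.9% and 8.88% of all probes. The higher count was 1 when any single marrow array was left out. Mmp3, a metalloproteinase that cuts osteopontin, was well above background on no M2 array. It was 7.71-fold higher in M1 with the M2 arrays set as for the dim Vcam1 probe. The difference was smaller after normexp (1.94) and with the floor (2.03). Fam20c, the kinase that phosphorylates secreted proteins such as osteopontin, was 3.48-fold lower in M1, and Mmp12, macrophage elastase, 3.15-fold lower.

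Of the other members of osteopontin's own protein family, the 3 tested went the other way from Spp1 in kidney. Dmp1, the remaining one, was not tested there and was well above background on no WT array. Ibsp, Mepe and Dspp, which encode mineral-binding proteins of bone and teeth, were all called higher in op/op (3 of 3 tested, beside 27.5% of all probes), by 1.25 ± 0.31 SE, 1.10 ± 0.24 SE and 0.88 ± 0.24 SE. They were dim, and after normexp the differences were 0.81, 0.59 and 0.57. Their group means lay between -3.60 and -0.58, and Mepe passed the background call on 2 of the 3 op/op arrays. The Dspp call ended with only the kidney arrays in the fit (limma adjusted p = 0.0593). None of the 3 was called between M1 and M2.

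The genes whose brightest probe ran most like that of each of the 7 over the 12 arrays were ranked by the root mean square of the difference after centring each probe, among 11507 gene names well above background on all arrays. Nearest to Spp1 were Noc2l, Manf and Coro1b (0.309, 0.323 and 0.324 log2 units). Nearest to Fn1 was Acta2, smooth muscle actin (0.286), followed by Cln8 (0.49) and Ddit4 (0.541). Vcam1 lay nearest to Fcgr2b, the inhibitory Fc receptor (0.371), Hmox1, heme oxygenase 1 (0.412), and Hilpda (0.487). Itgav lay nearest to Pdlim5, Tagln2 and Erlin2 (0.139, 0.144 and 0.16), and Itgb3 at 2618 to Extl2, Orai2 and Kcnab1 (0.103, 0.113 and 0.114). The Cd44 3′ UTR probe lay nearest to Mettl21c, Homer3 and Dnajc4 (0.122, 0.132 and 0.136), and Itga4 at 9754 to Rfx5, Phka1 and Sdccag3 (0.185, 0.2 and 0.207). Probes with a small spread of their own, such as that of Cd44 (SD 0.295 over the 12 arrays, against 2.05 for Fn1), give small differences by construction. The 12 arrays form 4 groups, so these rankings describe the group pattern and the shared slides.

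The per-array ratio between probes of 1 gene was then read in both comparisons. For 5 of the 7 pairs of a gene's brightest probe with another of its probes, the per-array ratio did not overlap between op/op and WT: all 3 Cd44 pairs, Itgb3 and Itgav (0.55, but 0.06 after normexp and 0.22 without op/op replicate 4). Vcam1 (0.59) and Itga4 (0.58) overlapped, and normexp turned the sign of both. Between M1 and M2 the ratio did not overlap for 3 of the 7, those of Itgb3 (3.36), Vcam1 (-0.94) and Itga4 (0.31). The same count over all probe pairs of the array was not made, and the 3 Cd44 pairs share the 3′ UTR probe. The counts therefore only describe these genes, and the difference between them was not tested.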

How the data were processed

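RNA of 12 samples was amplified with the Ovation PicoSL kit, labelled with Cy3 and hybridised, per the labels' protocols. Each spot has a background-subtracted intensity from Agilent Feature Extraction 10.7.3.1, with probe coordinates on mm9, per the file headers. The authors' deposited value table holds log2 values, which correlate at r = 1 with the scanner values, with column medians from -2.46 to -1.87, and it served as an alternative.

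Spots of a probe were averaged after 30 probes were left out for outlier flags, and log2 intensity minus each array's 75th percentile was tested with limma 3.58.1 in R 4.3.3 over all 12 arrays in 4 groups. A comparison tested the probes that all 3 arrays of either group had well above background. The procedure was tested on simulated data. Only 3 arrays a group limit the precision. Figures used matplotlib 3.10.9.

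Every probe of the 7 genes is reported. A pathway gene is read from its brightest probe, and up to 3 called genes with the smallest p per list and comparison are named. Markers named beside a result were picked after their values were seen. The 7 genes and all lists were chosen with earlier results of these data known. Samples of the same number did not deviate together (r from -0.142 to 0.124 within kidney and within marrow), so numbers were not taken as pairs.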

Additional observations from a re-analysis of the deposited data

How the results depend on the processing

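The precision is limited by 3 arrays a group and, for the dim Vcam1 probe at 842 and Itga4 probe at 2292, by signal near background. Over 236 values of the 14 probes in the kidney comparison under other settings, 212 kept direction and side of the threshold, 23 lost the call and 1 reversed. These kidney numbers count slide as a term and leaving out WT replicate 1 separately, although they are the same fit. For M1 minus M2 the numbers were 223 kept, 11 gained a call and 2 reversed. The replicate block, with numbers that did not pair the samples (1 of 6 kidney and 3 of 6 marrow samples correlated best with their own number), gave 11 called probes in op/op minus WT, 2 in M1 minus M2, 5 in WT minus M1, 8 in WT minus M2, 11 in op/op minus M1 and 13 in op/op minus M2. Over all probes that fit called 10743 higher and 10906 lower, 3139 and 2926, 12026 and 9219, 12906 and 9862, 16868 and 14063, and 16316 and 13586, in that order. The probes tested numbered 40648, 39286, 42384, 40889, 40898 and 38070.

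Called probes numbered 7 in op/op minus WT and 9 in M1 minus M2 with only the 2 groups in the fit, where the spread of the other arrays no longer enters. They numbered 4 in M1 minus M2 after normexp and 4 in WT minus M1 with slide as a random block, and the cause was not tested. Leaving out 1 array gave 8 to 12 called probes in op/op minus WT, 2 to 2 in M1 minus M2, 5 to 8 in WT minus M1, 8 to 11 in WT minus M2, 11 to 12 in op/op minus M1, 13 to 14 in op/op minus M2, and 5 to 6 probe pairs without overlap. Over all probes these fits called 7016 to 12203 higher and 9187 to 12398 lower in op/op minus WT. In M1 minus M2 they called 2605 to 2750 higher and 2210 to 2398 lower. In WT minus M1 the counts were 11542 to 15162 and 8681 to 11038, and in WT minus M2 12667 to 15584 and 9411 to 11476. In op/op minus M1 they were 16694 to 17399 and 13643 to 14272, and in op/op minus M2 16190 to 16709 and 13210 to 13795.

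Reversed values, of which only the Itgb8 value was called, had causes that were not tested. After quantile normalization these were Cd44 at 5494 in op/op minus WT (-0.14), Spp1 in M1 minus M2 (-0.035), Cd44 at 1965 (-0.050) and Itga4 at 2292 (-0.26) in WT minus M1, and Itga4 at 9754 in op/op minus M1 (0.079). After normexp they were Cd44 at 1777 in WT minus M1 (0.078), Itga4 at 2292 in op/op minus M1 (0.018) and op/op minus M2 (0.27), and the probe ratios of Vcam1 (-0.49) and Itga4 (-0.069) in kidney. With a floor at the 10th percentile they were Itgb8 in op/op minus WT (0.56), Itga4 at 2292 in op/op minus M2 (0.24) and the Vcam1 ratio (-0.68). Leaving out 1 array gave values on both sides of 0 for Spp1 in M1 minus M2 (-0.0048 without M1 replicate 2 to 0.082). In WT minus M1 it did so for Cd44 at 1777 (-0.25 to 0.053, above 0 without WT replicate 1 or 4), Cd44 at 1965 (-0.32 without WT replicate 2 to 0.35), Itgb3 at 2618 (-0.14 without WT replicate 4 to 0.61) and Itga4 at 2292 (-0.022 without WT replicate 1 to 0.24). It did so for Itga4 at 9754 in op/op minus M1 (-0.17 to 0.062, above 0 without op/op replicate 4 or M1 replicate 2) and for Itga4 at 2292 in op/op minus M2 (-0.54 to 0.040, above 0 without op/op replicate 1).

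Over all probes, op/op minus WT had 22750 calls, 49.2% of them higher, against 12078 with only the 2 groups and 61% higher after normexp (62.1% with the floor). M1 minus M2 had 6986 calls, 50% higher, against 13851 with only the 2 groups, 10888 with the floor (32.5% higher) and 39.3% higher with no filter. The median of all probes moved from 0.08 to 0.18 with normexp in op/op minus WT, and in the 4 kidney against marrow comparisons from between 0.20 and 0.26 to between -0.07 and 0.01 with quantile normalization.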
